A study of Homo sapiens with 32 samples.

Results

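The transcriptome of an HCT116 clone that had lost the element E7 was compared with that of 3 HCT116 clones that had lost another element, 18qNE. The members were taken by label: the E7 libraries of days A and B (2 libraries) against the libraries of 18qNE clone 1 (day A), 18qNE clone 2 (day B) and 18qNE clone 3 (day A), 5 of the 32 samples of the series and 5 of its 26 transcript count samples. HCT116 is a human colorectal carcinoma cell line. In every clone Cas9-GFP had been transfected, cells with high GFP had been sorted, and a single cell had been expanded; deletion clones had also received guide RNAs against their element, and control clones an empty guide vector. Both sides of the comparison had therefore gone through guide delivery and cutting, and the comparison asks which genes set the E7 clone apart from clones edited elsewhere. The control clones (4 clones, 8 libraries on days A and B) and the E7 library of day C stayed out of the test and are given beside it.

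The E7 libraries are repeat samples of 1 clone, while each 18qNE library is a clone of its own. The p-values of the test thus measure the spread between these libraries, part of which lies within 1 clone, and are too small as regards clones. A test with both E7 libraries summed as 1 sample is therefore given beside the main one; there the lone E7 sample is assumed to vary like the 18qNE clones. Gene counts totalled 14862268 and 14239593 in the E7 libraries and 11383373, 14079432 and 13323387 in those of 18qNE clones 1, 2 and 3. In all 5 libraries the epithelial genes EPCAM, KRT8, KRT18, KRT19 and CDH1 and the intestinal factor CDX2 were at or above 15.7 CPM (counts scaled by the gene counts of the library), while VIL1, CDX1, CEACAM5 and LGALS4, which mark differentiated colon epithelium, were below 0.176 CPM. Mitochondrial messenger RNA made up 4.32% and 4.08% of the E7 libraries and 5.11% to 6.47% of the 18qNE libraries.

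E7 is known as a distal element of the 8q24 region, which holds MYC, the transcription factor behind much of cell growth and division. The 18q21 region, to which 18qNE is known to belong, holds SMAD7, an inhibitor that the TGF-beta pathway induces to limit its own signal. Both regions carry inherited risk for colorectal cancer. Distal elements act by contact with promoters that may lie far away on the chromosome, so the genes near each element and the targets of MYC and of the SMAD proteins are the first to look at. The sources used here give neither the positions of the deleted stretches nor whether every copy of an element was lost.

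Of 14665 genes tested, 863 were called at an adjusted p below 0.05 (5.88%), 454 higher in the E7 clone (3.1%) and 409 lower (2.79%). A change of at least 2-fold was seen in 529 of them, 277 higher and 252 lower, and the median of all tested genes was -0.02 on the log2 scale. Every one of the 863 had the same sign on day A, where the E7 library faced 2 18qNE clones, and on day B, where it faced 1. In 849 of them both E7 libraries lay beyond all 3 18qNE libraries, against 34.4% of all genes tested (18.2% higher and 16.2% lower). The calls were made on these same libraries, so the equal signs and the lack of overlap follow largely from the selection. The E7 library of day C, which took no part in the test, lay beyond all 3 18qNE libraries on the same side for 841 of the 863, against 55.6% of all genes on either side. As a sample of the same clone it is a repeat measurement and no further clone. With the E7 libraries summed, 79 of 15155 genes were called (0.521%), 51 higher and 28 lower, and all 79 were among the 863. Without the day A library of E7 the main count was 186, without its day B library 259, and without 18qNE clone 1, 2 or 3 it was 2466, 209 or 1298.

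**Figure D1:**
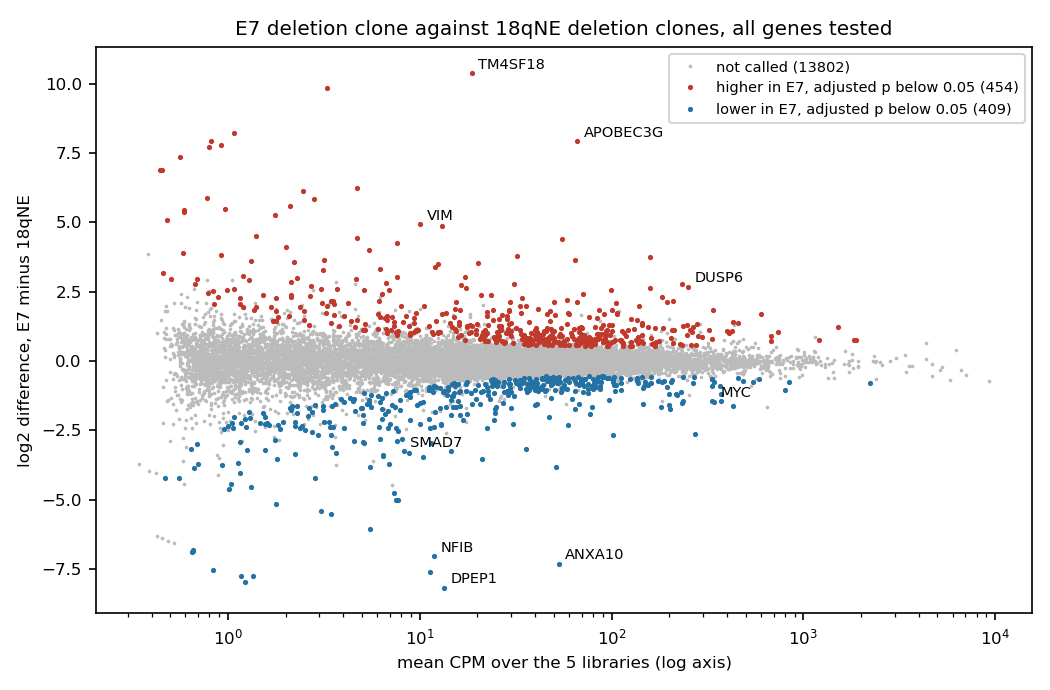
Each point is 1 of the 14665 genes tested, at its mean CPM over the 5 libraries (log axis) and its log2 difference, E7 minus 18qNE. The 454 genes called higher and 409 called lower spread over the whole range of levels, with TM4SF18 at the top and DPEP1 at the bottom among the labelled genes.

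The gene that set the E7 clone apart most was TM4SF18 (ENSG00000163762.2), a small membrane protein of the TM4SF family. Its level was 52.4 and 40.6 CPM in E7, against 0, 0.0710 and 0 CPM in 18qNE clones 1, 2 and 3. All 3 18qNE libraries held 1 count between them and the E7 libraries 1357, a ratio of 1809 (exact 95% interval 324 to 71487, counting error only; adjusted p = 0.000198). In the other members of its list TM4SF1, TM4SF4 and TM4SF5 had no count in any of these libraries, and TM4SF19 and TM4SF20 were at most 1.28 and 0.140 CPM. APOBEC3G (ENSG00000239713.3), a cytidine deaminase that restricts retroviruses, reached 230 and 100 CPM in E7 and 0.439, 0.426 and 1.28 CPM in the 18qNE libraries. The E7 libraries differed by more than 2-fold between themselves, yet the lower of them exceeded the highest 18qNE library by far, and the log2 difference was 7.93 (SE 0.26, adjusted p = 0.000129). In bulk RNA, fewer cells that express a gene and less RNA per cell cannot be told apart.

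Among the next genes several encode secreted or matrix proteins. IGFBP3, which binds insulin-like growth factors, was at 10.2 and 3.37 CPM in E7 and at most 0.264 CPM in the 18qNE libraries (log2 difference 5.83, SE 0.48). SPARC, a collagen-binding matrix protein, was at 6.86 and 3.30 CPM against at most 0.176 CPM (5.59, SE 0.44). SERPINA1, the protease inhibitor alpha-1 antitrypsin, was at 34.7 and 27.4 CPM in E7 and at most 1.5 CPM in the 18qNE libraries (4.87, SE 0.29). COL9A3, a collagen chain, was at 360 and 345 CPM in E7, and at 12.8, 15.6 and 63.0 CPM in 18qNE clones 1, 2 and 3 (3.73, SE 0.61). A lack of overlap between the groups was a condition for naming these genes, so it is no result about them. SYTL5, a protein of vesicle transport (6.25, SE 0.56), VIM (4.95, SE 0.37), TNFSF4, a costimulatory ligand of T cells (4.45, SE 0.35), VSNL1, a neuronal calcium sensor (4.38, SE 0.28), LINC01405 (3.98, SE 0.39) and NAV3, a microtubule-associated protein (3.78, SE 0.40), complete the 12 genes with the largest positive difference that the naming rule took, which holds to protein-coding genes where the RefSeq table gives a type. Their adjusted p ran from 0.000129 for APOBEC3G to 0.0185 for COL9A3.

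At the other end, genes with clear expression in all 3 18qNE clones were near 0 in the E7 clone. ANXA10 (ENSG00000109511.6), a calcium-binding annexin of gastric epithelium, was at 97.3, 80.5 and 86.5 CPM in the 18qNE libraries and at 0.269 and 0.843 CPM in E7, a log2 difference of -7.31 (SE 0.33, adjusted p = 0.000385). NFIB (ENSG00000147862.10), a transcription factor of the nuclear factor I family, was at 24.5, 16.7 and 17.9 CPM against 0.135 and 0.140 CPM (-7.04, SE 0.39, adjusted p = 0.000797). Neither gene's E7 libraries came near the lowest 18qNE library. DPEP1, a dipeptidase of the cell surface known from colorectal tumours, had 2 counts in E7 and 838 in the 18qNE libraries, 314-fold lower (exact 95% interval 86.8 to 2600), although the 18qNE clones themselves ran from 9.38 to 35.1 CPM. CD33, a receptor that binds sialic acids on myeloid cells, had 3 counts against 742, 186-fold lower (63.3 to 902). The retinol dehydrogenase gene SDR16C5 had 3 against 213 (53.3-fold lower, 18.0 to 260), and the zinc finger gene ZNF550 had 3 against 193 (48.3-fold lower, 16.3 to 236).

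The remaining genes of that group were also far below the 18qNE clones in E7. RUNX2, a regulator of bone genes, was at 0.404 and 0.281 CPM in E7 and at 13.8, 7.46 and 16.7 CPM in the 18qNE libraries (-5.03, SE 0.34). HNF4A, a nuclear receptor of gut and liver, was at 0.336 and 0.351 CPM against 15.5, 7.95 and 13.4 CPM (-5.01, SE 0.35). ICAM1, an adhesion receptor for leukocytes, was at 0.471 and 0.421 CPM against 5.53, 13.9 and 16.4 CPM (-4.78, SE 0.62). STXBP6, a SNARE-binding protein (-6.05, SE 0.48), PACSIN1, which shapes membranes in endocytosis (-3.83, SE 0.35), and DPYSL3, a cytoskeletal protein of neurons (-3.82, SE 0.18), were the others, with adjusted p over the 12 lower genes from 0.000385 to 0.0133. Of these 24 genes, 22 were also called with the E7 libraries summed; COL9A3 (adjusted p = 0.0870) and ICAM1 (adjusted p = 0.0565) were not. In 23 of the 24 both E7 libraries also lay beyond all 8 control libraries, the exception being STXBP6, which control libraries ranged over from 0 to 9.83 CPM. The 24 genes were chosen for large differences in the same E7 libraries, so this too follows in part from the selection. In none of the 24 did the 18qNE libraries all lie beyond the controls.

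**Figure D2:**
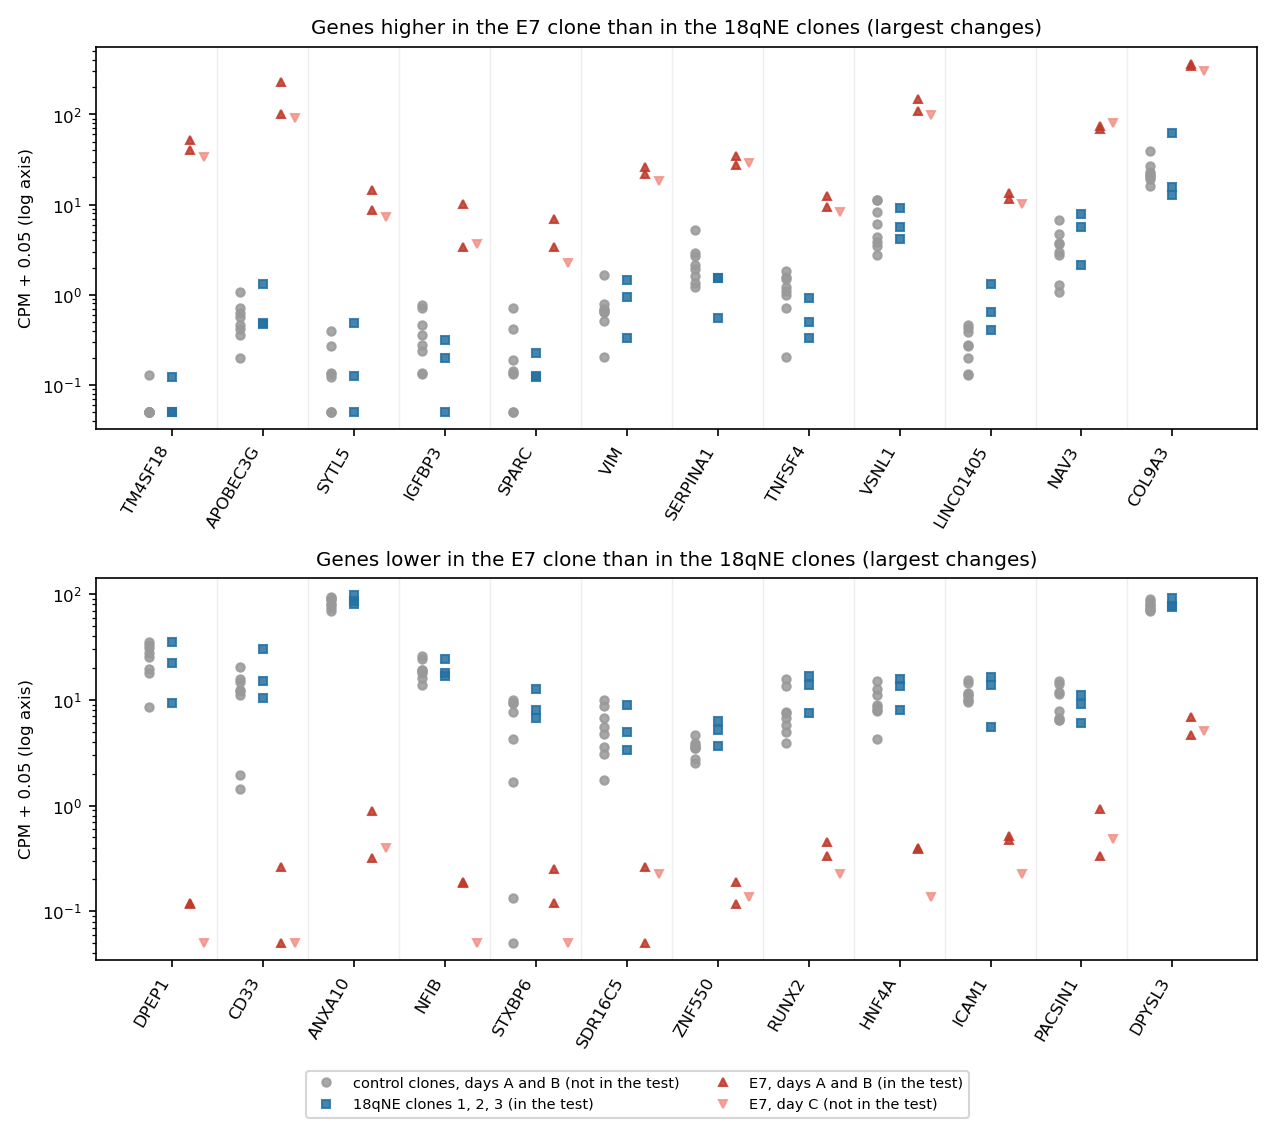
CPM plus 0.05 (log axis) of the 12 genes with the largest difference in each direction, 1 point per library. The E7 points of days A, B and C stand away from the 18qNE points. Several 18qNE points lie outside the range of the 8 control points, as for COL9A3, CD33 and ICAM1, and STXBP6 has control points near 0.

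Promoter sequences of a pair of genes that were high in E7 and at or below 1.41 CPM in the 18qNE libraries (TM4SF18 and VIM), and of a pair near 0 in E7 (ANXA10 and NFIB), are given for context, since these 4 carry the contrast of the plot of largest changes. They are RefSeq sequences of GRCh38.p14, from 250 bases before to 50 after the gene's start on the gene's strand. Capitals mark matches on either strand to 5 motifs: the E-box CACGTG bound by MYC, the RUNX site TGTGGT, the TEAD site GGAATG, the NFI half-site TTGGCA and the GC box GGGCGG.
TM4SF18 (chr3:149333587-149333886, minus strand): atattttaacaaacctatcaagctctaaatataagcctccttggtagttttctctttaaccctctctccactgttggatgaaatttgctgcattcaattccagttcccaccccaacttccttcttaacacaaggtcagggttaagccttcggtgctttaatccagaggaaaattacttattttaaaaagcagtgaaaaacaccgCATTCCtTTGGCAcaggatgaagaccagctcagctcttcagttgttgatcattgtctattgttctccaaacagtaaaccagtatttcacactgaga
VIM (chr10:17227991-17228290, plus strand): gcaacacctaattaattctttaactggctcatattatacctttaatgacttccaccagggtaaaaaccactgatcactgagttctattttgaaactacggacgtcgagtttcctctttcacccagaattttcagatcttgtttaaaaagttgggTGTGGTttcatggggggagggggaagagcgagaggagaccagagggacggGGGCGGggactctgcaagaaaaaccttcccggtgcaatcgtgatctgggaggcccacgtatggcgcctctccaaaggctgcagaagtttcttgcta
ANXA10 (chr4:168092287-168092586, plus strand): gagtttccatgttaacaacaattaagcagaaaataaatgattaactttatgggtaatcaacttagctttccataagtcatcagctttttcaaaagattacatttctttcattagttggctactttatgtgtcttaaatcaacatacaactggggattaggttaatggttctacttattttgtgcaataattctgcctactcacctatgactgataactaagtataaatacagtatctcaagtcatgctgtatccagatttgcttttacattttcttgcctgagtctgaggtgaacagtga
NFIB (chr9:14322338-14322637, minus strand): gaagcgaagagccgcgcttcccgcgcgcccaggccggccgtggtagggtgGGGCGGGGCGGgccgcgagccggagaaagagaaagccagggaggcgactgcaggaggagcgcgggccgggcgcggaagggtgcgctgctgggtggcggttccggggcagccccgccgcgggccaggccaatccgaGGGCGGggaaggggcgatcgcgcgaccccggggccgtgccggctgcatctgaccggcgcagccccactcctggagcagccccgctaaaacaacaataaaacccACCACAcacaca
None of the 4 windows held the E-box, which 7.26% of all 35116 RefSeq promoter windows hold. The TM4SF18 window held 1 TEAD site and 1 NFI half-site next to each other, letters that 14.0% and 12.5% of all windows hold. RUNX letters stood once in the VIM window and once in the NFIB window (13.1% of all windows), and GC boxes once in VIM and 3 times in NFIB (45% of all windows), with a pair of the NFIB boxes side by side. The ANXA10 window held none of the 5 motifs and had a GC content of 32.7%, against 73.7% in the NFIB window. A match is a description of letters, not of a bound site.

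Near the deleted E7 element, MYC (ENSG00000136997.10) was at 177 and 162 CPM in E7 and at 449, 507 and 418 CPM in the 18qNE libraries, with no overlap. The log2 difference was -1.47 (SE 0.14, adjusted p = 0.00332); with the E7 libraries summed it was -1.43 and was not called (adjusted p = 0.0727). TRIB1, a pseudokinase that directs protein degradation, was at 180 and 150 CPM against 535, 437 and 361 CPM (-1.43, SE 0.20, adjusted p = 0.0110). NSMCE2, which attaches SUMO within a DNA repair complex, was at 9.62 and 11.1 CPM against 38.9, 28.7 and 35.7 CPM (-1.72, SE 0.20, adjusted p = 0.00611). Of 23 tested genes of the list of 8q24 neighbours 15 were lower and none higher, with a median of -0.76; none of them was called with the E7 libraries summed. The 15 became 1 without the E7 library of day A, 5 without that of day B and 4 without 18qNE clone 2. SQLE of cholesterol synthesis (-1.15), the scaffold gene MTSS1 (-1.71), ASAP1 (-1.08) and the noncoding PVT1 (-0.55, adjusted p = 0.0469) were among the 15. PVT1 passed in 4 of the 13 other fits. The noncoding CASC8 had a log2 difference of -0.21 and was not called (adjusted p = 0.683). Since the sources used here do not give the strand setting of the counting, reads of these noncoding genes and of overlapping partners cannot be told apart.

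These neighbours lie in a long stretch of chromosome 8 that was lower in the E7 clone as a whole. From CPNE3 to KHDRBS3, 136 genes were tested, 47 of them lower and 1 higher, with a median log2 difference of -0.59, and 9 of the 136 lay lower than MYC, among them NSMCE2 (-1.72), MTSS1 (-1.71) and MAL2 (-1.53). Set against the control libraries, the median over these genes was -0.51 and -0.52 in the E7 libraries of days A and B and -0.52 in that of day C, but 0.10, -0.04 and 0.04 in 18qNE clones 1, 2 and 3 and -0.12 to 0.05 in the 8 control libraries. The lower level of the whole stretch thus accompanied that of MYC and its neighbours in the same libraries, and its part in their difference was not tested. On chromosome 12, the first genes, KDM5A to AMN1, were higher instead: 50 of 172 tested genes passed and none was lower (median 0.66), and the E7 libraries stood at 0.58, 0.59 and 0.56 against the controls on days A, B and C, the 18qNE libraries between 0.01 and 0.05. These stretches were found in these data, so the counts describe them and test nothing. Together the 2 stretches, with the end of chromosome 8 included, held 104 of the 834 called genes that have a chromosome in the RefSeq table, 51 higher and 53 lower. Of the tested genes with a chromosome, 218 lay in the stretch of chromosome 8, 172 in that of chromosome 12 and 13133 outside both.

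The 18qNE side had stretches of its own, in clone 3. From KCNK9 to C8orf33, the end of chromosome 8, clone 3 stood at -0.65 against the controls, as low as the E7 libraries (-0.58 and -0.53), while 18qNE clones 1 and 2 stood at -0.16 and -0.04. The E7 clone there differed from clone 3 by a median of 0.08 and from clones 1 and 2 by -0.45, and 6 of the 82 tested genes were called lower. From PREX1 to PCMTD2, at the end of chromosome 20, clone 3 stood at 0.55, the other 18qNE clones at -0.07 and 0.02 and the E7 libraries at -0.02 and 0.02. The E7 clone differed there from clone 3 by a median of -0.49 and from clones 1 and 2 by 0.02. In this stretch 2 of 111 genes were called higher and 3 lower, and COL9A3, for which clone 3 was the highest 18qNE library, is one of its genes. Differences between the groups in these stretches are therefore a mixture of clones that were at different levels.

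**Figure D3:**
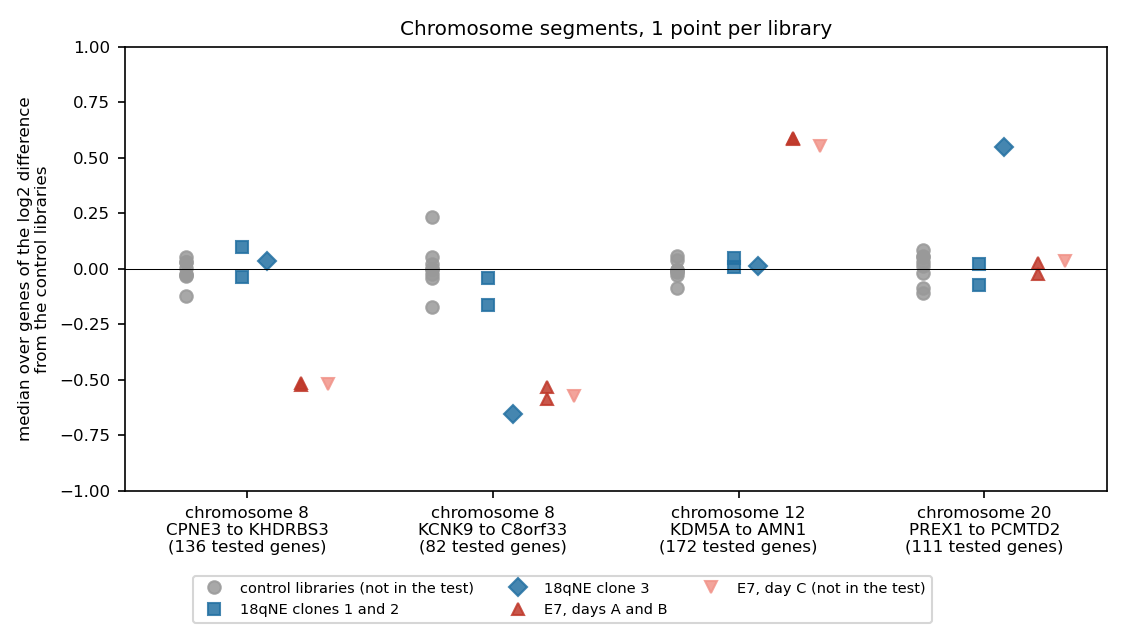
For each library, the median over the genes of 4 chromosome stretches of the log2 difference from the control libraries (a control library is set against the other control clones). The E7 libraries stand near -0.5 in both stretches of chromosome 8 and near 0.58 in that of chromosome 12. 18qNE clone 3 stands near -0.65 at the end of chromosome 8 and 0.55 at the end of chromosome 20. Clones 1 and 2 stay between -0.16 (clone 1, end of chromosome 8) and 0.10.

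Near the 18qNE element, SMAD7 (ENSG00000101665.4) was the gene that differed most, and it was the E7 clone that was low. It was at 0.875 and 2.04 CPM in E7, at 13.2, 12.7 and 12.4 CPM in the 18qNE libraries and at 6.75 to 12.7 CPM in the control libraries (E7 minus 18qNE -3.24, SE 0.34, adjusted p = 0.00440; -3.14 and adjusted p = 0.0189 with E7 summed). Of 24 tested genes of the 18q21 list 1 was higher, the RNA-binding ubiquitin ligase gene MEX3C (0.61, SE 0.13), and 1 lower, SMAD7, with a list median of 0.01. The share called, 8.33%, was near the 5.88% over all genes tested. SMAD4, the shared partner of the SMAD proteins, was at 66.6 and 66.5 CPM in E7 and 57.2 to 72.6 CPM in the 18qNE libraries (0.04, SE 0.13), and SMAD2, which carries the TGF-beta signal, at 125 and 105 CPM and 98.4 to 137 CPM (0.02, SE 0.14). The groups overlapped for SMAD2 and SMAD4, and neither was called.

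Around SMAD7, genes of the BMP branch of TGF-beta signalling were lower in the E7 clone. BMP ligands signal through SMAD proteins to induce the ID genes, which block differentiation factors. Of 13 tested BMP and ID genes 5 were lower and none higher, with a median of -0.90 against -0.02 over all genes. BMP2, a ligand, had no count in E7 and 77 in the 18qNE libraries, at least 19.3-fold lower (against 3 counts over the group). ID3 was at 34.2 and 20.9 CPM in E7 and at 133, 77.4 and 121 CPM in the 18qNE libraries (-1.91, SE 0.13, adjusted p = 0.000971). The ligand gene BMP4 was at 267 and 222 CPM against 428, 469 and 455 CPM (-0.90, SE 0.14), ID1 at 263 and 162 CPM against 568, 311 and 368 CPM (-0.90, SE 0.20) and ID4, of low level, at most 0.404 CPM against at least 1.35 CPM (-2.25, SE 0.45). For each of these the groups did not overlap. With the E7 libraries summed, 1 of the 5, BMP2, was called; ID1, with an adjusted p of 0.0491 in the main test, passed in 6 of the 13 other fits, ID4 in 6 and BMP4 in 7. Without either E7 library or without 18qNE clone 2 the list had 2 genes called lower, and without clone 1 or clone 3 it had 7.

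Receptors and mediators of the TGF-beta pathway went both ways. Of 32 tested SMADs, SMURFs and receptors 15.6% were called, against 5.88% over all genes. Higher were 2, the ubiquitin ligase SMURF2 (1.33, SE 0.15) and the latent TGF-beta binding protein LTBP3 (0.83, SE 0.14). Lower were 3, SMAD7, the decoy receptor BAMBI (-2.26, SE 0.25) and SMAD9 (-1.24, SE 0.28). With E7 summed SMAD7 was the 1 gene of these 5 still called (SMURF2, adjusted p = 0.138; BAMBI, adjusted p = 0.0564). Among 22 tested genes that TGF-beta induces, 4 were higher and 1 lower, with a median of -0.21. PDGFB, a growth factor for mesenchymal cells, was at 43.5 and 48.3 CPM in E7 and at 9.84, 8.03 and 8.18 CPM in the 18qNE libraries (2.38, SE 0.17, adjusted p = 0.00123). The others higher were CCN2, a matrix protein (2.59, SE 0.47), COL7A1, an anchoring collagen (1.71, SE 0.21), and THBS1, an activator of latent TGF-beta (1.28, SE 0.17). TIMP3, an inhibitor of matrix proteases, was at 1.61 and 1.47 CPM against 11.6, 10.6 and 12.9 CPM (-2.90, SE 0.25). With E7 summed PDGFB and TIMP3 were called and CCN2, COL7A1 and THBS1 were not, and without 18qNE clone 1 the list had 6 genes higher and 7 lower.

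Several mesenchymal genes were higher in the E7 clone and several epithelial regulators lower, though members of both lists went the other way. Epithelial cells are held together by E-cadherin (CDH1), and factors such as GRHL2 and OVOL1 keep them epithelial, while VIM and ZEB1 mark mesenchymal cells. VIM (ENSG00000026025.9) was at 26.0 and 21.8 CPM in E7 and at 1.41, 0.284 and 0.901 CPM in the 18qNE libraries (4.95, adjusted p = 0.00133). Its antisense gene VIM-AS1 had 175 counts against 3, a ratio of 77.7 (26.2 to 381), and without a known strand setting part of these may be reads of VIM. Of 15 tested mesenchymal genes 5 were higher and 1 lower (40% called, against 5.88% over all genes), with a median of 0.14. The list ran from -1.79, in a gene that was not called, to 5.59. S100A4, a motility protein, was at 384 and 386 CPM against 92.2, 68.1 and 111 CPM (2.15, SE 0.18), but the control libraries ranged from 71.0 to 352 CPM. The receptor kinase gene AXL was at 108 and 142 CPM against 24.6, 30.8 and 24.9 CPM (2.14, SE 0.12), and the repressor ZEB1 at 12.9 and 11.2 CPM against 3.07, 5.26 and 3.45 CPM (1.57, SE 0.26). SPARC completes the 5. The lower gene was SNAI1, itself a repressor of CDH1, at 7.54 and 9.13 CPM against at least 14.7 CPM (-1.07, SE 0.18). FN1, the matrix protein fibronectin, was at 14.8 and 9.69 CPM against 59.5, 25.6 and 26.0 CPM and was not called (-1.5, adjusted p = 0.0551).

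Of 39 tested epithelial junction genes 7 were called lower and none higher (17.9%, against 5.88% over all genes), with a median of -0.22. The list ran from -2.09 to 1.73, the latter in a gene that was not called. CDH1 was at 53.6 and 44.8 CPM in E7 and at 116, 87.1 and 98.2 CPM in the 18qNE libraries (-1.01, SE 0.13, adjusted p = 0.00994). The control libraries ranged from 51.3 to 114 CPM and overlapped both groups (differences from control -0.72 in E7 and 0.28 in 18qNE). OVOL1 was at 3.97 and 3.65 CPM against 20.5, 15.7 and 12.2 CPM (-2.09, SE 0.29) and GRHL2 at most 20.5 CPM against at least 36.8 CPM (-1.26, SE 0.16). For GRHL2 too the control libraries, at 11.9 to 49.4 CPM, overlapped E7. The others were AP1M2, which sorts proteins to the basal membrane (-0.91), GRHL1 (-0.82), the factor ELF3 (-0.81) and the splicing factor ESRP1 (-0.71), and GRHL2 and ESRP1 lie in the lower stretch of chromosome 8. EPCAM, at 274 and 302 CPM against 330 to 360 CPM, was not called (-0.29, adjusted p = 0.227). None of the 7 was called with the E7 libraries summed, whereas 4 of the 5 higher mesenchymal genes were. When either E7 library or 18qNE clone 2 was left out, 1 junction gene was called lower, while 3 to 7 mesenchymal genes were called higher over the left-out libraries. Of 10 fibroblast markers 6, COL1A2, DCN, LUM, PDGFRA, FAP and DPT, had no count in the E7 libraries, and the list summed to 18.9 and 22.6 CPM in E7 and 22.9 to 25.3 CPM in the 18qNE libraries, nearly all of it COL1A1. Of 8 endothelial markers none was above 0.703 CPM in any of the 5 libraries.

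YAP and TAZ are coactivators of the TEAD factors that respond to cell contact and stiffness. Of 18 tested YAP and TEAD genes 6 were higher and none lower, with a median of 0.23. WWTR1, which encodes TAZ, was at 149 and 116 CPM in E7 and at 77.3, 28.8 and 48.5 CPM in the 18qNE libraries (1.55, SE 0.25, adjusted p = 0.0183). AXL and CCN2, both known targets, are on this list too, and AMOTL1 (0.95), CRIM1 (0.86) and PTPN14 (0.58) were the others. CCN1, a classical target, was at 6.86 and 11.1 CPM against 7.66 to 11.7 CPM and was not called (-0.16). With E7 summed 1 of the 6, AXL, was called, and the count was 2 without either E7 library and 1 without 18qNE clone 2.

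The APOBEC3 genes lie side by side on chromosome 22 and encode cytidine deaminases that restrict viruses and mutate DNA. Of 10 tested genes of this cluster and its flanks 7 were higher and none lower, with a median of 2.02. APOBEC3C was at 398 and 237 CPM in E7 and at 47.8, 43.6 and 63.6 CPM in the 18qNE libraries (2.65, SE 0.16, adjusted p = 0.000948). APOBEC3F was at 87.9 and 37.9 CPM against 12.6, 6.61 and 9.76 CPM (2.78, SE 0.17), and APOBEC3B at 26.1 and 28.3 CPM against 7.29, 7.24 and 7.28 CPM (1.87, SE 0.17). APOBEC3D was at 13.1 and 9.76 CPM against 2.20, 2.13 and 3.45 CPM (2.17, SE 0.26), and APOBEC3H at 4.44 and 2.39 CPM against 0.351, 0.639 and 1.13 CPM (2.27, SE 0.45). All 6 tested APOBEC3 genes were thus higher, without overlap, by amounts that ran from 1.87 to 7.93 on the log2 scale. APOBEC3C, APOBEC3D, APOBEC3F, APOBEC3G and APOBEC3H were each at least as high on day A as on day B in E7, and APOBEC3B was not. Every control clone had the same order of days for the former genes. APOBEC3F, for example, was at 10.3 to 11.3 CPM on day A and 4.05 to 6.15 CPM on day B in the controls. APOBEC3B, APOBEC3C, APOBEC3F and APOBEC3G were also called with E7 summed. Reads shared between these similar genes could be assigned to the wrong copy by the counting, so single members other than APOBEC3G are less certain.

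The flanking genes differed less. On one side NPTXR, a synaptic pentraxin receptor, was at 92.7 and 60.3 CPM against 29.8, 16.3 and 32.3 CPM (1.68, SE 0.14, adjusted p = 0.00204; not called with E7 summed), and the control libraries ranged from 20.8 to 56.6 CPM. CBX7 (0.80, adjusted p = 0.0821) and CBX6 (0.38, adjusted p = 0.207), which encode subunits of Polycomb complexes, and DNAL4 (0.29, adjusted p = 0.573) were not called. None of the 23 tested interferon response genes was called, at a list median of -0.04: ISG15 was at 40.4 and 39.4 CPM against 48.4 to 69.8 CPM (-0.50). IFIT1, with a log2 difference of 1.53, was not called (adjusted p = 0.135). Without 18qNE clone 1, 3 genes of that list were called higher and 2 lower.

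**Figure D4:**
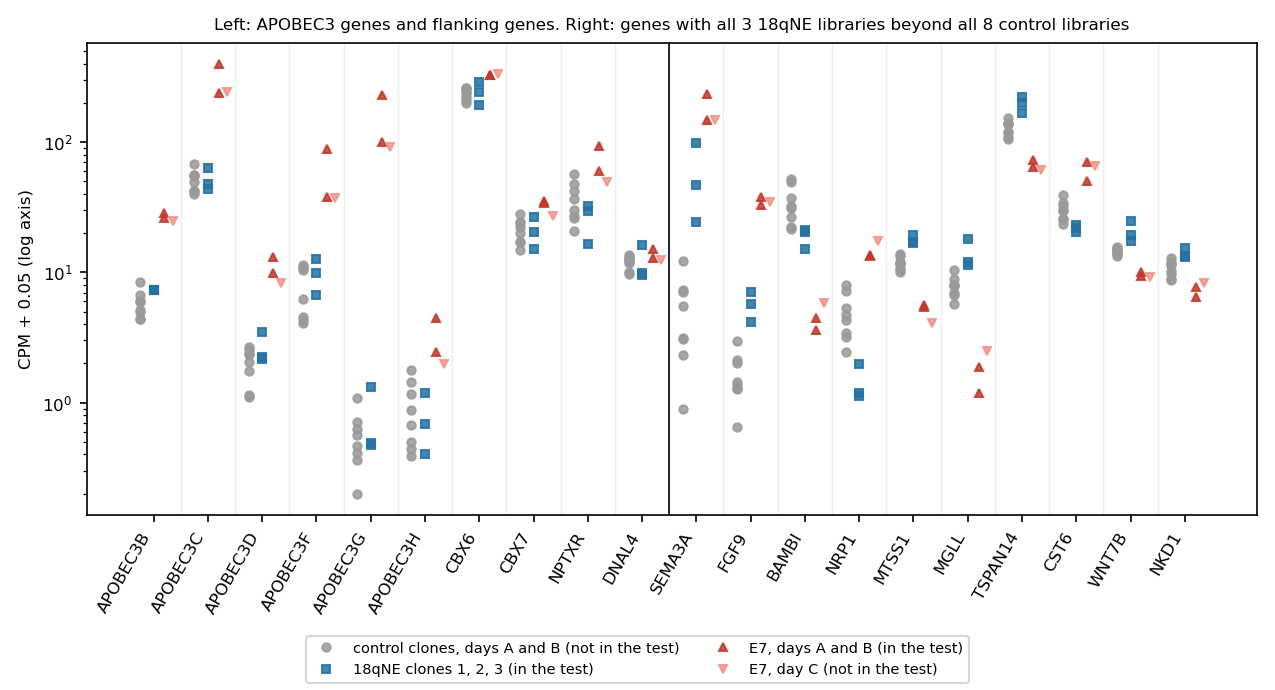
CPM plus 0.05 (log axis), 1 point per library, for the APOBEC3 genes with their flanking genes (left of the line) and for genes in which all 3 18qNE libraries lay beyond all 8 control libraries (right). On the left the E7 points lie above the 18qNE and control points for every APOBEC3 gene; on the right the 18qNE points leave the controls in the same direction as E7 for SEMA3A, FGF9 and BAMBI and in the opposite direction for the other genes.

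Lineage factors were among the genes with the largest differences. The NFI and RUNX families each have several members with overlapping DNA sites. Here the called RUNX genes went different ways, while both called NFI genes were lower. Of 8 tested genes 1 was higher and 3 lower. RUNX1 was at 134 and 141 CPM in E7 and at 39.8, 20.2 and 19.4 CPM in the 18qNE libraries (2.42, SE 0.30, adjusted p = 0.00787), while RUNX2 was nearly absent in E7, as given above. RUNX3 (-0.22) and CBFB (-0.01), the partner of all 3, were not called. Beside NFIB, NFIA was lower, at 22.7 and 27 CPM against 44.2, 47.6 and 48.1 CPM (-0.96, SE 0.14), and NFIC (0.46, adjusted p = 0.0744) and NFIX (0.47) were not called. RUNX1, RUNX2 and NFIB kept their calls with E7 summed.

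Among 18 tested intestinal identity factors 3 were higher and 2 lower. HNF4A was the largest decrease, followed by PPARG, a nuclear receptor of enterocytes and fat cells, at 21.1 and 14.0 CPM against 125, 88.6 and 48.8 CPM (-2.32, SE 0.40). FOXA2, a pioneer factor of endoderm, had 34 counts against 1, a ratio of 45.3 (7.60 to 1842). SOX9, a factor of crypt progenitors, was at 228 and 168 CPM against 116, 45.7 and 76.0 CPM (1.5, SE 0.23), and EHF, an epithelial ETS factor, at 212 and 139 CPM against 86.2, 33.5 and 63.3 CPM (1.71, SE 0.19). CDX2 was not called (-0.43). Of the 5, HNF4A alone was called with E7 summed. HOX genes, which set position along the body axis, changed in 6 of 26 tested: HOXB3 (1.49), HOXB4 (1.10), HOXB8 (1.08) and HOXB6 (1.02), which lie in 1 cluster, were higher, and HOXD3 (-2.25) and HOXA10 (-0.78) lower, none of them called with E7 summed.

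Growth factor genes also separated the clones. FGF19, a hormone of the intestine, was at 129 and 86.7 CPM in E7 and at 32, 15.8 and 30.4 CPM in the 18qNE libraries (2.19, SE 0.14, adjusted p = 0.000971). Of 21 tested FGF and IGF genes 3 were higher, FGF19, FGF9 and IGFBP3, and 3 lower, the adaptor IRS1 (-1.24, SE 0.14), the receptor IGF1R (-0.98, SE 0.18) and IGF2BP3 (-0.61). DUSP6, a phosphatase that ERK induces and that shuts ERK off, was at 574 and 401 CPM against 111, 42.3 and 124 CPM (2.68, SE 0.23, adjusted p = 0.00220), with the control libraries at 38.8 to 185 CPM. Of 24 tested MAPK output genes EPHA2 (1.20) and the ligand EREG (0.71) were higher too and none was called lower. The share called was 12.5%, against 5.88% over all genes. DUSP4 (0.80), SPRY4 (0.89) and ETV4 (0.05) were not called, nor was the lowest member of the list, at -1.74. With E7 summed none of the MAPK output genes was called (DUSP6, adjusted p = 0.0749; EPHA2, adjusted p = 0.0649), nor was FGF19 (adjusted p = 0.0505), whereas FGF9 and IGFBP3 were. Without 18qNE clone 1, 11 MAPK output genes were higher and 1 lower. Of 17 tested Wnt target and feedback genes FGF9 and SOX9 were higher, and BMP4 and the inhibitors NKD1 (-1.01) and NKD2 (-1.03) lower; FGF9 alone of these was called with E7 summed.

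Guidance receptors changed in opposite directions. NRP1, a coreceptor for semaphorins and VEGF, was at 13.3 and 13.6 CPM in E7 and at 1.93, 1.07 and 1.13 CPM in the 18qNE libraries (3.31, SE 0.30, adjusted p = 0.00265). Its relative NRP2 was at 0.135 and 0.492 CPM against 3.60, 2.06 and 4.88 CPM (-3.34, SE 0.63, adjusted p = 0.0303). Neither pair of groups overlapped, and NRP1 was called with E7 summed and NRP2 was not. Of 19 tested guidance and neurofilament genes 2 were higher (NAV3 and NRP1) and 2 lower (NRP2 and SEMA3E, -1.88). DPYSL3, GATA2 (-2.29) and GATA3 (-2.02), which stood on a list of HEK293 markers, were lower in E7, 3 of 8 tested genes of that list, which summed to 63.9 and 45.4 CPM in E7 and 143 to 179 CPM in the 18qNE libraries; DPYSL3 and GATA2 were called with E7 summed. Apart from CD33, the leukocyte list gave LYZ, a secreted lysozyme, as higher (2.09 and 0.843 CPM against at most 0.284 CPM), while CD3E, MS4A1, FCGR3A and SPI1 had no count in the 5 libraries. Of the neuronal list SYT1 was higher (0.88), and GAP43 and ELAVL4 had no count. Neither LYZ nor SYT1 was called with E7 summed.

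Of 46 tested MYC targets none was called, with a median of -0.24, and of 57 tested ribosome biogenesis genes none, with a median of -0.21. Without 18qNE clone 1, however, 19 MYC targets and 18 ribosome biogenesis genes were called lower and 1 target higher. In the fit of 13 libraries with controls 6 of each list were lower and 1 of each higher. The largest shift of the targets was in TERT, the telomerase catalytic subunit, at 4.10 and 5.41 CPM in E7 and at 4.92, 12.9 and 10.2 CPM in the 18qNE libraries (-1.07, adjusted p = 0.125). NOLC1, a nucleolar chaperone, was at 326 and 403 CPM against 430, 799 and 702 CPM (-0.90, adjusted p = 0.0636). Within the network of MYC partners MLX was higher (0.80, SE 0.11) and MYC lower, both without a call when E7 was summed. The share of that list called in the main test was 13.3% of 15 tested genes, against 5.88% over all genes. None of 42 tested DNA replication genes was called (median -0.01), and 1 of 44 mitosis genes, CDCA3 (0.73), which lies in the higher stretch of chromosome 12. None of 13 mitochondrially encoded genes (median -0.44) and 19 hypoxia genes (median -0.52) was called. Without 18qNE clone 1, 8 replication, 6 mitochondrially encoded and 5 hypoxia genes were called lower and 5 mitosis genes higher, and without clone 3, 7 hypoxia genes were lower. MT-ND4 had the largest shift of the first (-0.72, adjusted p = 0.0958), and CA12 of the second, at 1.14 and 0.492 CPM against 7.29, 7.24 and 1.80 CPM (-2.73, adjusted p = 0.0775). Over all genes 3222 had an unadjusted p below 0.05, and DESeq2 called 1111 where edgeR called 863, so that lists without a call are not shown to be without a change.

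In the remaining lists described here none of the calls held with the E7 libraries summed. In the main test 33.3% of metallothioneins and 20.8% of glycolysis genes were called, against 5.88% over all genes. Of 6 tested metallothioneins, zinc-binding proteins whose near-identical copies make single genes uncertain, MT2A (183 and 290 CPM against 60.9, 91.7 and 97.3 CPM, 1.38) and MT1X (1.11) were higher. Of 24 glycolysis genes SLC2A3, a glucose transporter (2.71), the enolase ENO2 (1.69) and LDHB (0.75) were higher and ALDOC (-1.55) and the lactate transporter SLC16A1 (-0.68) lower; SLC2A3, ENO2 and LDHB lie in the higher stretch of chromosome 12. The share called was 5.56% of DNA repair genes and 6.45% of p53 targets, near the 5.88% over all genes. Among 36 DNA repair genes XRCC4, of end joining, was at 93.3 and 78.1 CPM against 36.1, 26.8 and 17.8 CPM (1.66, SE 0.27), and NBN, in the lower stretch of chromosome 8, was lower (-0.63). CDKN1A, the p53 target that halts the cell cycle, was at 146 and 122 CPM against 147, 86.0 and 112 CPM, with overlap, and was not called (0.30); of 31 p53 targets PLK2 was higher (1.18) and RRM2B, also of the chromosome 8 stretch, lower (-0.84).

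**Figure D5:**
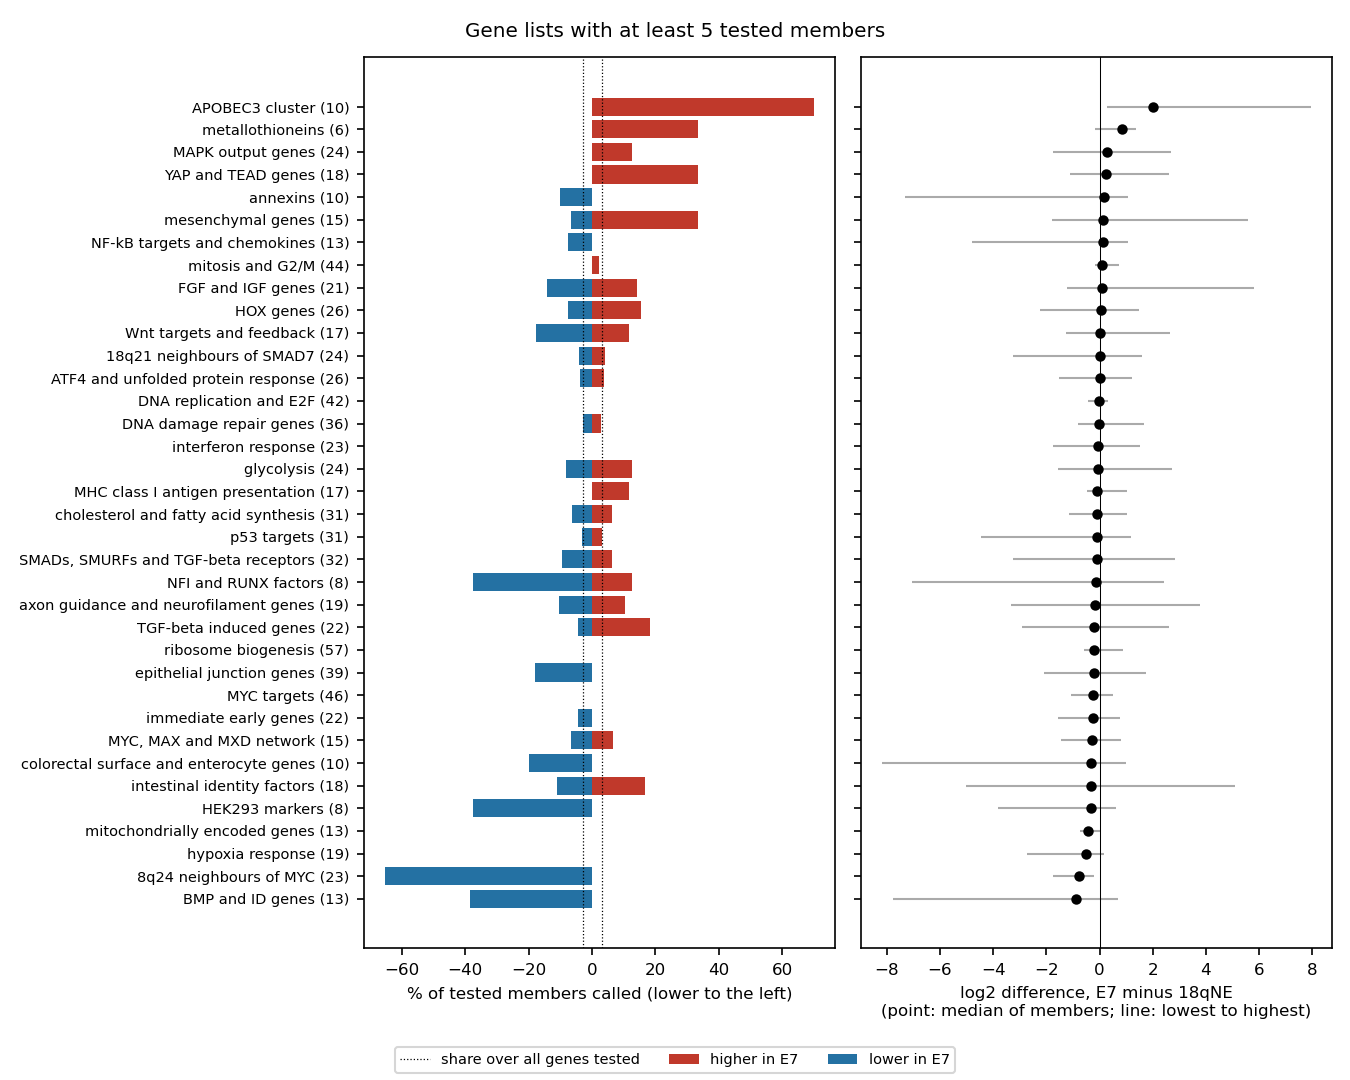
Left, the share of each list's tested members called higher (to the right) or lower (to the left) in E7, with dotted lines at the shares over all genes tested, 3.1% and 2.79%. Right, the median (point) and range (line) of the members' log2 differences; the APOBEC3 cluster has the highest median, 2.02, of the lists with 5 or more tested members, and the BMP and ID genes the lowest, -0.90.

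The control libraries were set beside the called genes to describe where each group stood. The rule was unlike for the groups: for E7 it rested on repeat libraries of 1 clone, for 18qNE on 3 separate clones. The counts of the groups can therefore not be set against each other. In 745 of the 863 called genes both E7 libraries lay beyond all 8 control libraries on the same side as beyond the 18qNE libraries (22.8% of all genes tested lay so on either side). The calls were made on these same E7 libraries, so this share follows in part from the selection. All 3 18qNE libraries lay beyond all 8 control libraries in 13 of the 863, against 0.723% of all genes tested. In 10 of the 13 the 18qNE clones lay beyond the controls in the direction opposite to E7, and in 3 in the same direction. The E7 and 18qNE groups are set against the same control libraries here, so their differences from control are given side by side and not correlated; they come from 1 fit of 13 libraries.

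Of the 10 genes that stood on opposite sides, the receptor gene NRP1 had a difference from control of 1.5 in E7 and of -1.86 in 18qNE. MGLL, a lipase that releases fatty acids from monoglycerides, was at 1.14 and 1.83 CPM in E7, at 11.4, 17.8 and 11.9 CPM in the 18qNE libraries and at 5.63 to 10.5 CPM in the control libraries (-2.41 and 0.84 from control; E7 minus 18qNE -3.33, SE 0.24). TSPAN14, a tetraspanin, was at 72.3 and 64.4 CPM in E7, 223, 201 and 168 CPM in 18qNE and 105 to 154 CPM in the controls (-0.91 and 0.63). MTSS1 was at 5.52 and 5.34 CPM, 16.8, 16.9 and 19.4 CPM, and 10.0 to 13.7 CPM (-1.12 and 0.61). For these genes the 18qNE libraries lay outside the controls, so that E7 minus 18qNE was larger than E7 minus control. CST6, a protease inhibitor, was higher in E7 and lower in 18qNE (0.97 and -0.39), as was ZBTB12 (0.45 and -0.47). The ligand WNT7B (-0.60 and 0.50), NKD1 (-0.62 and 0.40), EPB41L4B (-0.59 and 0.24) and GREB1L (-0.29 and 0.54) were lower in E7 and higher in 18qNE. GREB1L was the 1 of the 10 in which E7 overlapped the controls. NRP1, MGLL and CST6 were also called with the E7 libraries summed.

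In 3 called genes all 18qNE libraries lay beyond the controls on the same side as E7. FGF9 was at 38.1 and 32.7 CPM in E7, at 5.62, 6.96 and 4.13 CPM in the 18qNE libraries and at 0.594 to 2.91 CPM in the control libraries (4.44 and 1.81 from control; E7 minus 18qNE 2.63, SE 0.23, adjusted p = 0.00222). BAMBI was at 4.37 and 3.58 CPM, 15.1, 20.2 and 21.1 CPM, and 21.3 to 52.2 CPM (-3.12 and -0.85), and IP6K1, an inositol phosphate kinase, differed little (-0.70 and -0.11). The highest 18qNE library for IP6K1 was at 63.6 CPM and the lowest control library at 63.7 CPM, and the SE of the -0.11 was 0.07. The order of the groups in all 3, with 18qNE between the controls and E7, follows from how these genes were picked. SEMA3A, a secreted guidance cue and ligand of NRP1, showed the same order without a call: 232 and 147 CPM in E7, 24.2, 47.1 and 97.9 CPM in the 18qNE libraries and 0.849 to 12.1 CPM in the controls (5.22 and 3.43 from control). Its difference between E7 and 18qNE was 1.78 (SE 0.47, adjusted p = 0.0792; 0.345 with E7 summed). DSC3, a desmosomal cadherin, was at 30.6 and 36.9 CPM in E7, at 31.1, 24.5 and 19.3 CPM in 18qNE and at 3.99 to 16.1 CPM in the controls, with overlap of the edited clones (0.40, SE 0.22, adjusted p = 0.362). TWIST1, a mesenchymal factor, was at 9.76 and 8.36 CPM in E7 and at 3.78, 0.426 and 0.751 CPM in 18qNE clones 1, 2 and 3, and with clone 1 alone above the highest control library, at 1.38 CPM, was not called (2.77, adjusted p = 0.0590).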

How the data were processed

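The data used are tables of how many reads fell on each gene, raw counts that the authors deposited for every HCT116 library in a file of its own. The submitters' processing notes name the build hg19, HTSeq 0.6.1, TopHat2, BWA 0.6.2, bedtools, CASAVA, Partek 3 and bcl2fastq; the sources used here give neither their roles nor the strand setting. A file listed 57820 genes. NCBI tables of GRCh38.p14 gave a symbol for 39538 and a chromosome for 38068, and served for names and gene order only. Summary lines for reads outside genes (8.53% to 9.86% of all reads in the 5 libraries), ambiguous reads (3.17% to 3.46%) and reads aligned at several places (12.5% to 13.6%) stayed out of library sizes and tests. Per gene, CPM is the count scaled by the gene counts of the library.

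The 5 libraries were fitted with edgeR 4.0.16 in R 4.3.3 (quasi-likelihood F test, 2-sided, day and group as terms, TMM factors, genes kept by filterByExpr at a minimum count of 10), and p-values were adjusted over all tested genes by Benjamini and Hochberg, with calls below 0.05. Differences are log2, E7 minus 18qNE, with standard errors (SE). Simulated counts were drawn for 5 independent libraries, with 1 dispersion (spread between libraries) for all genes and no clone or day effect. In them 82% of 2-fold and 99% of 4-fold changes were recovered, and 3.21% of the calls were false (14619 genes tested). They hold no repeat samples of 1 clone, so they give no error rate as regards clones. DESeq2 1.42.0, other scaling, filters and designs, each library left out in turn, and, added after seeing the data, a fit of 8 clones with controls were tried. Where a group held 1 to 3 counts, ratios of pooled CPM carry exact 95% intervals of counting error; with 0 counts the bound uses 3 counts over the group. Medians along chromosomes use log2(CPM + 0.5) against the control libraries, centred on the median gene, over stretches chosen on these data from running medians of 31 genes.

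Named genes were the 12 largest differences per direction among called protein-coding genes with both E7 libraries beyond all 18qNE libraries whose higher group averaged 5 CPM or more (LINC01405 has no type in the table), up to 3 called members of each of 42 lists, and 10 genes given whatever their result, such as MYC and SMAD7. Genes outside this rule were named after their values were seen. The comparison, the members and the lists were chosen with earlier results of these data known. Some genes of the lists are not reported here.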

Additional observations from a re-analysis of the deposited data

Results flagged for a closer look

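Among the 133 genes named or checked, the mean CPM of 1 of the 4 control clones (days A and B) lay apart from the other 3 in 8 genes, where the gap to the nearest clone, as a share of the whole range, exceeded Dixon's 95% critical value. Chance gives this in about 1 of 20 groups. Control clone 3 stood apart in 4 genes: S100A4 at 339 CPM (the others 80.5 to 88.7 CPM), TIMP3 at 21.3 CPM (the others at least 11.9 CPM), EPHA2 at 116 CPM (92.3 to 94.5 CPM) and GRHL2 at 17.4 CPM (38.7 to 42.7 CPM). Control clone 4 stood apart in 4: TSPAN14 at 146 CPM (119 to 123 CPM), ID4 at 1.45 CPM (at most 0.684 CPM), IFI35 at 7.38 CPM (8.33 to 8.42 CPM) and CDKN1A at 104 CPM (148 to 152 CPM). The test of E7 against 18qNE holds no control library, so these values bear only on the statements that set E7 or 18qNE beside the controls. For S100A4 and GRHL2, control clone 3 alone lay on the E7 side of the 18qNE libraries.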

How the results depend on the processing

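The number of called genes depended on the design more than any single large difference did. It was 863 in the main fit, 929 with DESeq2's size factors (RLE), 1111 with DESeq2, 2105 without a filter on low counts, 420 without the day term, 79 with the E7 libraries summed as 1 clone, 2009 in a fit of 13 libraries with controls, 202 on day A alone, 400 in the added fit of 8 clones, and 186 to 2466 when each library was left out in turn. Shared with the 863 were 862 (RLE), 802 (DESeq2), 863, 420, 79, 829, 197 and 387 of these calls. Of the 111 named genes called in the main fit, 63 were no longer called with E7 summed and 33 in the fit of 8 clones, and none of the 111 changed sign under any alternative run. SMAD4 and SMAD2, near 0 and not called, changed sign: SMAD4 was -0.083 on day A alone, -0.062 without the E7 library of day B and -0.090 without 18qNE clone 2, with -0.090 to 0.181 over the left-out libraries, and SMAD2 was -0.024 without the day term, -0.020 on day A alone, -0.028 without 18qNE clone 2 and -0.048 without clone 3 (-0.048 to 0.127 over the left-out libraries). No paired analysis was possible because the E7 libraries are repeat samples of 1 clone and share no clone with the 18qNE libraries. The clone and the deletion cannot be told apart for E7. At this depth, genes of few counts were limited by counting error, as the intervals of TM4SF18 and DPEP1 show.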

Other observations

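Several genes with large differences stood on none of the lists and outside the naming rule; they were chosen after their values were seen. LIF, a cytokine of the interleukin-6 family, was at 214 and 182 CPM in E7 and at 41.6, 29.4 and 31.1 CPM in the 18qNE libraries (2.57, SE 0.15, adjusted p = 0.000881). ITGB8, an integrin subunit that activates latent TGF-beta, was at 31.6 and 23.0 CPM against 2.55, 1.42 and 4.05 CPM (3.49, SE 0.28), and COL12A1, a fibril-associated collagen, at 322 and 408 CPM against 58.2, 89.5 and 89.5 CPM (2.13, SE 0.19). The groups of these 3 genes did not overlap, and all were called with the E7 libraries summed. DCLK1, a kinase that marks tuft cells, had 78 counts in E7 and none in the 18qNE libraries, at least 34.7-fold higher (against 3 counts over the group).

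Lower in E7 were SYK, a kinase of immune receptor signalling, at 3.57 and 2.25 CPM against 40.6, 34.2 and 25.2 CPM (-3.52, SE 0.31), and the transcription factor MEF2C, at 2.56 and 2.04 CPM against 23.2, 18.8 and 25.7 CPM (-3.25, SE 0.21). TBX3, a factor of limb and gland development, was at 5.72 and 6.88 CPM against 77.4, 54.8 and 35.1 CPM (-3.18, SE 0.37), and ABCC2, an export pump for conjugated drugs, at 79.1 and 51.4 CPM against 338, 384 and 504 CPM (-2.64, SE 0.22). MEF2C varied among the control libraries from 3.31 to 36.7 CPM. Beside ZNF550, the zinc finger genes ZNF615 and ZNF426, which also lie on chromosome 19, were near 0 in E7: ZNF615 had 2 counts against 113, 42.4-fold lower (11.5 to 354), and ZNF426 was at 0.202 and 0.281 CPM against 5.01, 4.40 and 4.28 CPM (-4.21, SE 0.41).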
